A study of Mus musculus with 2 samples.

Results

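Gldc, Gcsh, Amt and Dld, which encode the 4 proteins of the glycine cleavage system, were selected by gene symbol from the 32285 genes of single-cell RNA matrices of mouse tumours. They were chosen for the level of Gldc in T cells and in tumour cells of these same libraries, so their levels are given as descriptions without a test. The tumours were subcutaneous and came from mice on a diet without serine and glycine (titled SG, here SG-free) or on a control diet (titled CT), with 1 library per diet. The sources used here do not give the number of mice behind a library, their strain, sex or age, or the tumour line. After filtering, the SG-free library held 19009 cells with a median of 7283 unique molecular identifiers (UMIs, tags that each mark 1 captured RNA molecule), and the control library held 13588 cells with a median of 11310.5 UMIs. Levels are UMIs summed over the cells of a class scaled to a common total by the UMIs of all genes in that class (CPM), and all intervals are 95% and cover counting error only. With 1 library per diet nothing could be set against the spread between animals, and no p-value was computed.

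The glycine cleavage system is a mitochondrial enzyme complex that splits glycine into carbon dioxide and ammonia and hands its remaining carbon to tetrahydrofolate. Gldc, the P protein, removes the carboxyl group, Gcsh, the H protein, carries the rest of the molecule on a lipoate arm, Amt, the T protein, releases ammonia and loads the folate, and Dld, the L protein, reoxidises the lipoate. Dld also serves the pyruvate, oxoglutarate and branched-chain keto acid dehydrogenases, whereas Gldc is the decarboxylase of glycine breakdown. The complex is best known from liver, kidney and brain.

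In GRCm38 (mm10, GENCODE M21), Gldc (ENSMUSG00000024827) lies on the minus strand at chr19:30098447-30175429, Gcsh on the minus strand at chr8:116981810-116993537, Amt on the plus strand at chr9:108296853-108302302 and Dld on the minus strand at chr12:31331277-31351453. The 250 bases before the RefSeq start of Gldc (chr19:30175442-30175691, minus strand) and of Gcsh (chr8:116993499-116993748, minus strand) are shown because these members had opposite patterns between T cells and tumour cells. RefSeq starts differ from the GENCODE ones above. The end of the Gcsh stretch, with its last GC box, therefore lies inside the GENCODE gene. Both stretches are RefSeq sequences of GRCm38.p6, and capitals mark GC boxes (GGGCGG or its complement CCGCCC) and CCAAT boxes (CCAAT or ATTGG).
Gldc: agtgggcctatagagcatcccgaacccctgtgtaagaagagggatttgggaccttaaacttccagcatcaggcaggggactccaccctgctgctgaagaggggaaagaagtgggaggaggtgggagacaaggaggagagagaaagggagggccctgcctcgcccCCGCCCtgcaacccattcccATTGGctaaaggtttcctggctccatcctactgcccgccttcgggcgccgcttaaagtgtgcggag
Gcsh: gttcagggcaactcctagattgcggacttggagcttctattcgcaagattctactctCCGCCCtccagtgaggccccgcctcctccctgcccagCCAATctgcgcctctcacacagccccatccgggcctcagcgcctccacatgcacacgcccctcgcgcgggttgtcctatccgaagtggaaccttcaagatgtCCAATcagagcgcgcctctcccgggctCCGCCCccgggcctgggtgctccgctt
The Gldc stretch was 59.6% G or C with 8 CpG pairs and the Gcsh stretch 64.4% with 18, beside medians of 52.4% and 6 over 32536 mouse promoters of that length. Gldc held 1 GC box and 1 CCAAT box, and Gcsh held 2 of each. GC boxes occurred in 33.0% and CCAAT boxes in 33.8% of all these promoters, on either strand. Of 5 other motifs searched on both strands, the NFAT core GGAAA, found in 55.7% of promoters, occurred 2 times before Gldc and not before Gcsh. TATAAA (12.3% of promoters), the RUNX core TGTGGT (14.0%), the AP-1 site TGANTCA (6.73%) and the core of the amino acid response element TGATGNAA (3.40%) occurred in neither. A match is only a run of letters, and no binding was measured.

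Cells were assigned to classes by marker transcripts that did not include the 4 genes. A T-gated cell had at least 3 of 9 T cell markers with 1 of Cd3d, Cd3e, Cd3g or Trac among them, a pan-leukocyte transcript and at most 1 of 3 tumour markers. A presumed tumour cell had at least 2 of Hmga2, Rhox5 and Krt20 and at most 1 pan-leukocyte marker. This gave 1327 T-gated cells (median 1566 UMIs) and 12890 presumed tumour cells (median 9186) in the SG-free library, and 463 (median 2093) and 10405 (median 12955) in the control library. Summed T cell markers stood at 8811 CPM in T-gated cells against 6.27 in presumed tumour cells of the SG-free library, and at 7690 against 2.01 CPM in the control library. Summed tumour markers stood at 82.2 CPM in T-gated cells against 2806 in presumed tumour cells of the SG-free library, and at 69.6 against 2829 CPM in the control library, with a median of 0 tumour marker UMIs in T-gated cells of both. Exactly 3 T markers were found in 119 SG-free and 29 control T-gated cells, and exactly 2 tumour markers in 4709 SG-free and 3755 control tumour cells. In the 2 libraries 87 cell barcodes were the same, 71 of them in kept cells of either, and the Gldc ratio of T-gated over tumour cells was 206 in the SG-free and 37.1 in the control library without them.

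Gldc stood highest in T cells of both libraries. T-gated cells held 336 Gldc UMIs in the SG-free library, a level of 130 CPM (117 to 145), and 92 UMIs in the control library, a level of 74.5 CPM (60.0 to 91.3). Presumed tumour cells held 86 UMIs among far more RNA in the SG-free library, 0.650 CPM (0.520 to 0.803), and 293 UMIs in the control library, 2.01 CPM (1.78 to 2.25). The level in T-gated cells was therefore 200 times that in tumour cells in the SG-free library (158 to 257) and 37.1 times in the control library (29.0 to 47.0). Ranked by this ratio, Gldc was 391st of 13708 genes in the SG-free library and 500th of 13712 in the control library. Of the 3 members with at least 50 UMIs over both classes, Gldc alone was at least 10 times higher in T-gated cells. So were 6.54% of all genes in the SG-free and 5.75% in the control library. Amt had too few UMIs to be ranked. The control ratio moved to 84.5 with a stricter gate that asked 1 more marker of every class, and so all 3 tumour markers of tumour cells. Gldc was then at 0.881 CPM in control tumour cells and 74.4 CPM in control T-gated cells. Adding 1 CPM to both levels gave ratios of 79.5 in the SG-free and 25.1 in the control library.

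No Gldc UMI was found in natural killer, B or plasma, dendritic or neutrophil cells of either library. For the 149 SG-free natural killer cells, with 0 UMIs, the interval reaches 8.82 CPM. A floor of 3 UMIs over the class in that library is 7.18 CPM. T-gated cells were 18.1-fold above this floor (interval from 14.7). For the 124 control natural killer cells the interval reaches 6.50 CPM and the floor is 5.28 CPM, 14.1-fold under T-gated cells (interval from 11.2). Natural killer cells are the cytotoxic lymphocytes closest to CD8 T cells, and summed T cell markers reached 2373 CPM in them in the SG-free and 1994 CPM in the control library. Against the floor of dendritic cells the T-gated level was 21.1-fold higher in the SG-free (interval from 17.0) and 12.4-fold in the control library (from 9.92). Against the floor of neutrophils it was 26.7-fold (from 21.6) and 3.74-fold higher (from 2.98). The neutrophil gate set no limit on tumour markers, which stood at 2310 CPM in SG-free and 1289 CPM in control neutrophil-gated cells. A tumour marker UMI was in 41.0% of these SG-free cells and 15.4% of the control ones. The part of tumour RNA in the neutrophil floor was not tested. The 18 B or plasma cells of the control library were too few to bound the level closely.

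Monocytes and macrophages held 4 Gldc UMIs in 1760 SG-free cells (0.710 CPM) and 2 in 1423 control cells (0.304 CPM). Fibroblasts came after T cells. They held 17 UMIs in 15 of 127 SG-free cells, 17.0 CPM (9.93 to 27.3), and 3 UMIs in 3 of 97 control cells, 3.08 CPM (0.635 to 9.0). T-gated cells were 7.64 times above fibroblasts in the SG-free library (4.70 to 13.3) and 24.2 times in the control library (8.02 to 119). Fibroblast-gated cells carried T cell markers at 15 CPM in the SG-free and 14.4 CPM in the control library and tumour markers at 848 and 683 CPM, and the part of either in their Gldc was not tested. The order of Gldc levels was T cells, fibroblasts, then macrophages and tumour cells in the SG-free library, where the last pair did not differ beyond counting error (ratio 1.09, 0.291 to 2.90). In the control library tumour cells and fibroblasts did not differ beyond counting error (fibroblast over tumour 1.53, 0.315 to 4.53), and both stood below T cells.

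**Figure D1:**
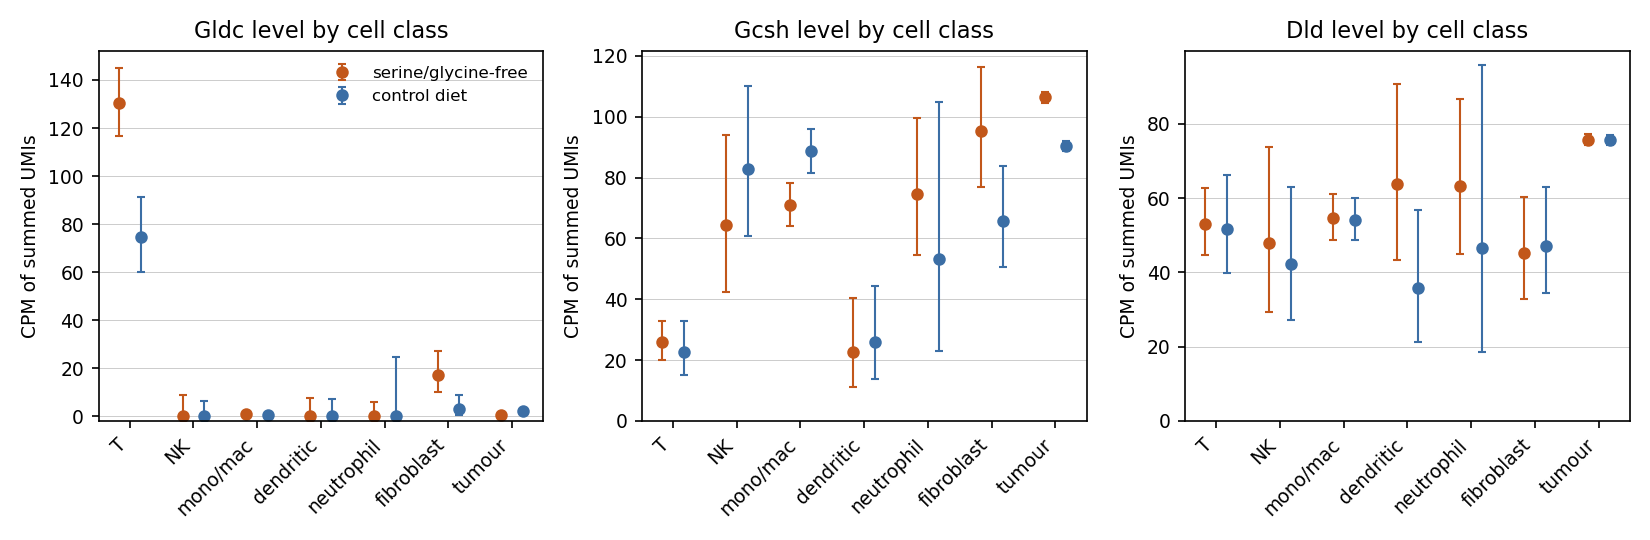
Level of Gldc, Gcsh and Dld in each cell class with at least 50 cells in both libraries. Points are CPM of UMIs summed over the class, SG-free left of control, and bars are exact 95% Poisson intervals. Amt is not drawn. Gldc stands at 130 CPM in SG-free and 74.5 CPM in control T-gated cells and below 20 CPM in every other class, whereas Gcsh is at 106 CPM in SG-free and 90.3 CPM in control tumour cells.

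Gcsh ran the other way. T-gated cells held Gcsh at 26.0 CPM (20.1 to 33.0) in the SG-free and 22.7 CPM (15.1 to 32.8) in the control library. Presumed tumour cells held it at 106 CPM (105 to 108) in the SG-free and 90.3 CPM (88.8 to 91.9) in the control library. The ratio of T-gated over tumour cells was 0.244 (0.189 to 0.310) in the SG-free and 0.251 (0.167 to 0.363) in the control library. Among members with at least 50 UMIs over both classes, which leaves out Amt, Gcsh alone was at least 1.5 times lower in T-gated cells. This property was shared by 34.6% of all genes in the SG-free and 36.3% in the control library. Natural killer cells, at 64.6 CPM in the SG-free and 82.8 CPM in the control library, and macrophages, at 71.0 and 88.6 CPM, were well above T-gated cells. The SG-free natural killer level was 2.49 times the T-gated level (1.53 to 3.94). Dendritic cells, at 22.7 CPM in the SG-free and 25.9 CPM in the control library, did not differ from T-gated cells beyond counting error.

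Dld, the subunit shared with other dehydrogenases, was the most even member. T-gated cells held it at 53.1 CPM in the SG-free and 51.8 CPM in the control library, and presumed tumour cells at 75.7 and 75.6 CPM. The ratio of T-gated over tumour cells was 0.701 (0.588 to 0.830) in the SG-free and 0.685 (0.527 to 0.876) in the control library. In the SG-free library no neighbouring pair in its order of 7 classes differed beyond counting error. In the control library tumour cells stood above macrophages by 1.40 times (1.26 to 1.56), and the other neighbours did not differ.

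Amt, the subunit that loads the folate, was close to the limit of detection. Presumed tumour cells held 19 Amt UMIs in the SG-free library, 0.144 CPM (0.0865 to 0.224), and 26 UMIs in the control library, 0.178 CPM (0.116 to 0.261). T-gated cells held none, with intervals that reach 1.43 CPM in the SG-free and 2.99 CPM in the control library, levels above those of tumour cells. An Amt UMI was in 0 of 1327 SG-free and 0 of 463 control T-gated cells. Those intervals reach 0.278% and 0.794% of cells with a UMI, which is no limit on cells that express the gene. Whether T cells and tumour cells differ in Amt was not detectable at this depth. The gene lies 355 bases from Nicn1 on the same strand and 656 bases from Tcta on the other, and the sources used here do not say how reads between them were counted.

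Gldc was found in a minority of T-gated cells, and more unevenly than its mean implies. A Gldc UMI was present in 221 of 1327 SG-free T-gated cells, 16.7% (exact binomial interval 14.7 to 18.8), and in 63 of 463 control cells, 13.6% (10.6 to 17.1). Presumed tumour cells had one in 0.636% of SG-free and 2.43% of control cells, despite their greater depth, and natural killer cells in 0 of 149 and 0 of 124. Of the SG-free T-gated cells, 145 held 1 UMI, 50 held 2, 16 held 3 and 10 held 4 or more, with 6 the highest. Of the control T-gated cells, 41 held 1, 16 held 2, 5 held 3 and 1 held 4. Spreading the same UMIs over cells in proportion to each cell's depth would place at least 1 in 284 SG-free and 80.4 control cells, and at least 2 in 44.5 and 10.3 cells. The data had at least 2 in 76 SG-free and 22 control cells, so fewer cells held more UMIs each. Part of this excess lay between T cell clusters, since nearly all of this Gldc was in cluster 13, described below. Within cluster 13 an even spread would place at least 2 UMIs in 61.2 SG-free and 15.3 control cells, beside 76 and 21 found.

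The other members had few T-gated cells with more than 1 UMI. Gcsh was found in 62 SG-free T-gated cells, with 64.7 from an even spread, and in 25 control cells, with 26.8. At least 2 Gcsh UMIs were in 5 SG-free cells, with 2.26 from an even spread, and in 3 control cells, with 1.13, counts too small to say whether Gcsh was even. Dld was found in 129 SG-free cells, with 128 from an even spread, and in 61 control cells, with 58.2, and at least 2 Dld UMIs were in 8 SG-free cells, with 8.85 from an even spread, and in 3 control cells, with 5.35. T-gated cells with a Gldc UMI were deeper, with a median of 2808 UMIs in the SG-free and 3041 in the control library, than those without, with 1422 and 1927.5.

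**Figure D2:**
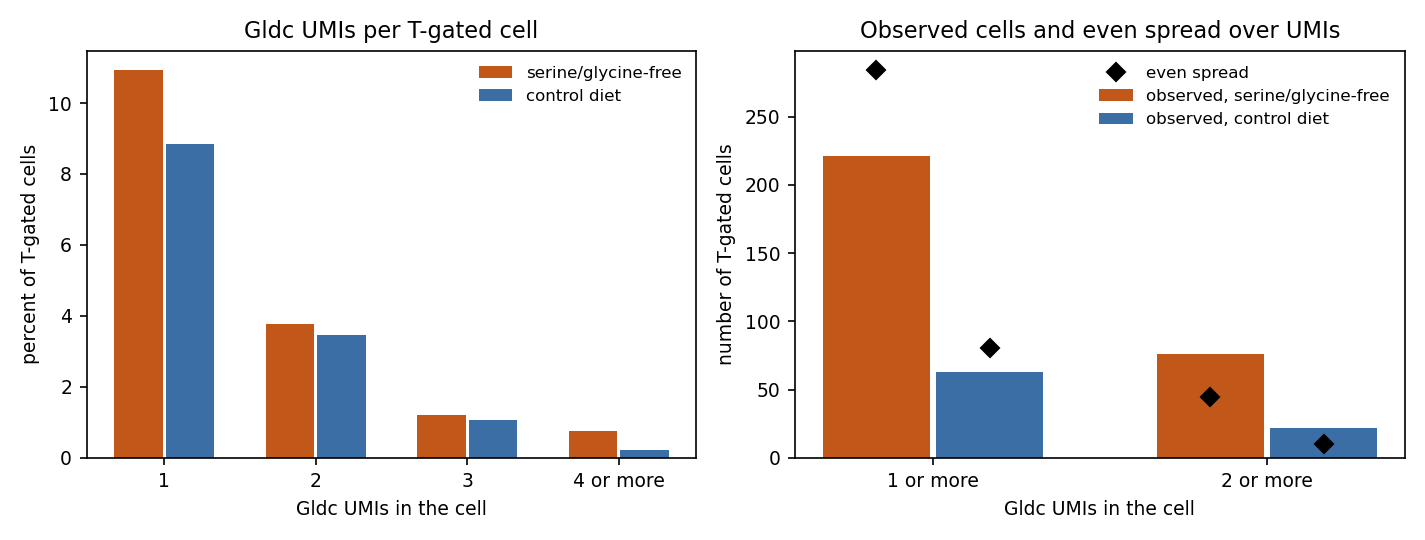
Left, percent of T-gated cells with 1, 2, 3 or at least 4 Gldc UMIs (bars, SG-free left of control); right, number of T-gated cells with at least 1 and at least 2 Gldc UMIs (bars) beside the number an even spread by depth gives (diamonds). At least 2 UMIs were found in 76 SG-free and 22 control cells, above the 44.5 and 10.3 of an even spread over all T-gated cells.

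Thinning each cell to 2000 UMIs put cells on an equal footing and left out 875 SG-free and 222 control T-gated cells that were shallower. Gldc was then found in 103 of 452 SG-free T-gated cells (22.8%) and 41 of 241 control ones (17.0%). In thinned presumed tumour cells it was found in 0.156% of SG-free and 0.491% of control cells. Fibroblasts had it in 9 of 120 SG-free cells (7.50%) and 0 of 96 control cells. Gcsh at the same depth was found in 4.20% of T-gated and 17.9% of tumour cells in the SG-free library, and in 4.15% and 15.1% in the control library. Dld was found in 10.2% of T-gated and 14.2% of tumour cells in the SG-free library, and in 9.54% and 13.5% in the control library.

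Clustering that left out the 4 genes put most T-gated cells into 2 clusters, and nearly all T-gated Gldc UMIs lay in 1 of them. Cluster 13, whose leading genes included Tox, Nkg7 and Cd3g, held 335 of the 336 Gldc UMIs of SG-free T-gated cells and 88 of the 92 of control ones. It made up 57.7% of T-gated cells in the SG-free and 48.6% in the control library. The Gldc level in cluster 13 was 184 CPM (165 to 205) in the SG-free and 116 CPM (93.1 to 143) in the control library, and 28.7% and 27.1% of its cells had a Gldc UMI. Cluster 15, led by Skap1, Gm2682, Grap2, Ikzf2 and Ms4a4b, held 1 Gldc UMI in 536 SG-free cells (1.43 CPM) and 4 UMIs in 223 control cells (9.62 CPM). The ratio of cluster 13 over cluster 15 was 129 (23.0 to 5110) in the SG-free and 12.1 (4.55 to 45.3) in the control library. For Gcsh and Dld the same ratio had an interval holding 1 in both libraries.

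By lineage transcript, Gldc was mostly in CD8 cells, the cytotoxic T cells, taken as those with Cd8a or Cd8b1 and neither Cd4 nor Foxp3. The 827 SG-free CD8 cells had Gldc at 161 CPM (143 to 180) and the 287 control CD8 cells at 89.1 CPM (70.4 to 111), which was 88.4% of T-gated Gldc UMIs in the SG-free and 84.8% in the control library. Cells with Cd4 alone had 5 UMIs in 66 SG-free cells and 1 UMI in 22 control cells. Cells with Foxp3, the regulator of regulatory T cells, had 5 UMIs in 40 SG-free cells and 1 UMI in 29 control cells. T-gated cells with none of these transcripts were shallower and had Gldc at 35.8 CPM in the SG-free and 37.2 CPM in the control library. The CD8 level was 3.77 times the CD4 level (1.60 to 11.7) in the SG-free library and 3.20 times in the control library, where the interval held 1 (0.558 to 128).

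Gldc was higher in T-gated cells with more of 6 activation or exhaustion markers (Pdcd1, Lag3, Havcr2, Tox, Tigit and Entpd1). In the SG-free library the level was 5.57 CPM with none, 41.9 with 1, 110 with 2, 166 with 3 and 217 with at least 4. In the control library it was 27.1 CPM with none, 10.5 with 1, 68.0 with 2, 104 with 3 and 123 with at least 4, so cells with none and with 1 did not follow the order there. The ratio of at least 4 over none was 39.0 (10.6 to 325) in the SG-free and 4.53 (1.92 to 13) in the control library. Median depth moved with it, from 981 to 2711 UMIs across these bins in the SG-free and from 1624.5 to 4004 in the control library. With each cell first thinned to 2000 UMIs, Gldc was at 16.1, 103, 173 and 210 CPM for 0, 1, 2 and at least 3 markers in the SG-free library, and at 20.8, 63.8, 90.2 and 165 CPM in the control library. Gcsh and Dld had ratios of at least 4 markers over none of 1.09 and 1.04 in the SG-free and 1.36 and 1.17 in the control library, with intervals holding 1.

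Single transcripts divided the T-gated cells in the same way. Cells with Prf1, which encodes the pore-forming protein perforin, had 6.22 times the Gldc level of cells without it in the SG-free (4.39 to 9.05) and 2.44 times in the control library (1.49 to 4.14). For Havcr2, the inhibitory receptor TIM-3, the ratio was 3.29 (2.61 to 4.16) in the SG-free and 1.93 (1.24 to 2.97) in the control library. For Tox, a transcription factor of exhausted T cells, it was 3.56 in the SG-free and 2.14 in the control library. Pdcd1, Lag3, Tigit and Entpd1 gave ratios between 1.68 and 2.16 in the SG-free and between 1.80 and 2.89 in the control library. Gzmb, the protease granzyme B, gave 2.30 (1.80 to 2.95) in the SG-free library and 0.944 (0.613 to 1.45) in the control library.

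Tcf7, a transcription factor of naive and memory T cells, went with less Gldc beyond counting error in the SG-free library. Cells with Tcf7 had 0.305 times the level of cells without it in the SG-free (0.138 to 0.587) and 0.442 times in the control library, where the interval held 1 (0.118 to 1.17). Ccr7 did not divide the cells beyond counting error, with ratios of 1.08 in the SG-free and 0.818 in the control library. CD8 cells with at least 2 of 6 cycling markers had 1.27 times the Gldc level of CD8 cells with none (0.980 to 1.64) in the SG-free and 0.690 times (0.388 to 1.21) in the control library, so cycling did not separate Gldc levels beyond counting error.

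**Figure D3:**
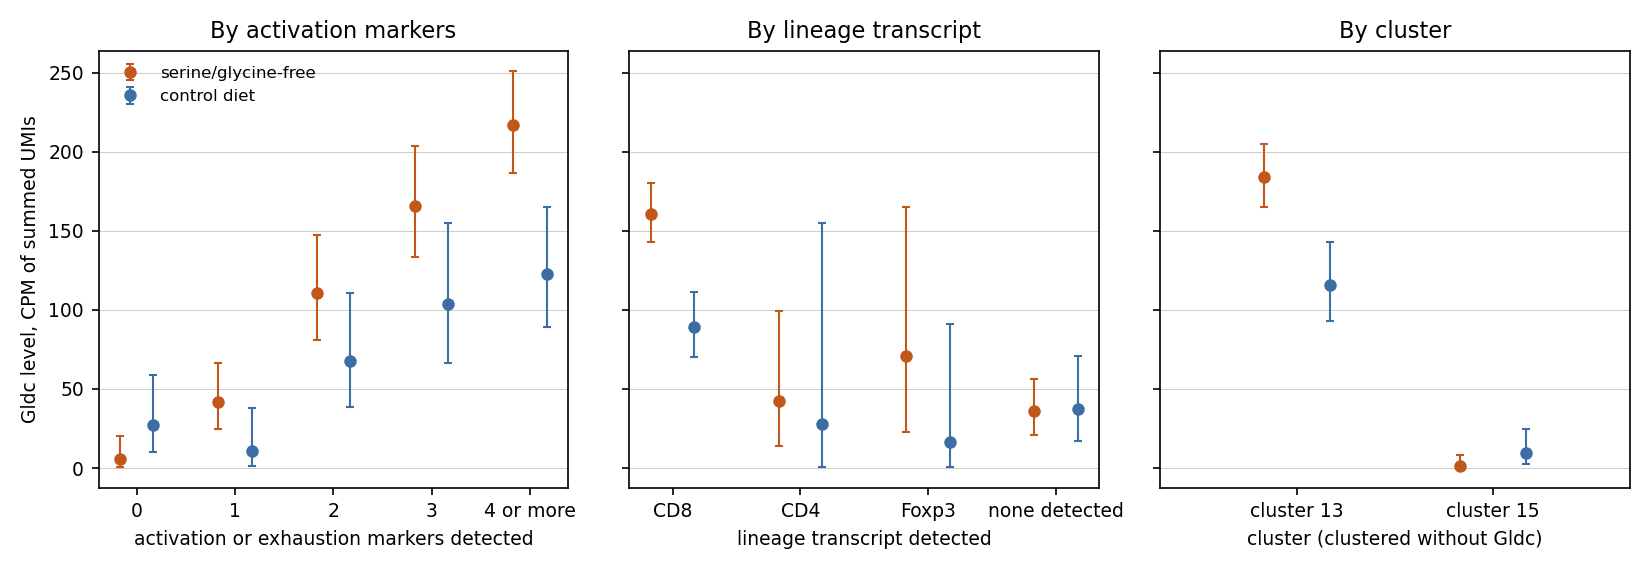
Gldc level in T-gated cells, as CPM of summed UMIs (points, SG-free left of control) with exact 95% Poisson intervals (bars), by number of activation or exhaustion markers, by lineage transcript and by cluster. The level reaches 217 CPM in SG-free and 123 CPM in control cells with at least 4 markers, and stands at 184 and 116 CPM in cluster 13 against 1.43 and 9.62 CPM in cluster 15.

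Genes that went with Gldc were named by rule. Across T-gated cells, 2311 genes had at least 20 UMIs in Gldc-positive cells of each library, and the 10 highest by the smaller of both ratios were led by Myo10, an unconventional myosin. Myo10 stood at 455 CPM in Gldc-positive against 142 CPM in Gldc-negative T-gated cells of the SG-free library, and at 530 against 165 CPM in the control library, a ratio of 3.21 in each. Gzme (3.13 in the SG-free and 2.81 in the control library) and Gzmd (2.98 and 2.64), which encode granzymes, Serpine2 (2.64 and 3.89), a protease inhibitor, and Fcrl6 (3.32 and 2.46), a receptor of cytotoxic lymphocytes, followed. Prf1 (2.43 and 2.34), Havcr2 (2.31 and 2.36), Plcl1 (2.40 and 2.28), Serpinb9b (3.05 and 2.24) and Tcrg-C2 (2.19 and 2.80) completed the set. The other members could not enter this ranking, with 4 Gcsh, 13 Dld and 0 Amt UMIs in Gldc-positive cells of the control library. Gcsh was at 33.0 CPM in Gldc-positive against 23.4 in Gldc-negative cells of the SG-free library (ratio 1.41, 0.814 to 2.39) and at 17.0 against 24.0 CPM in the control library (0.707, 0.178 to 2.06). Dld gave ratios of 1.0 in the SG-free and 1.08 in the control library. Tumour marker RNA was at 51.7 CPM in Gldc-positive against 93.5 in Gldc-negative T-gated cells of the SG-free library, and at 93.3 against 64.0 CPM in the control library. Uhrf2, a ubiquitin ligase gene named here after its values were seen, lies 4725 bases from Gldc on the other strand and was at 478 CPM in T-gated against 43.7 in tumour cells of the SG-free library, and at 491 against 40.0 CPM in the control library. The sources used here do not state how reads on the other strand were treated, and a part of Uhrf2 reads in Gldc counts was not tested.

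Across cell classes, the gene most like Gldc was Galnt18, an enzyme of O-linked glycosylation. Its Pearson correlation with Gldc was 0.977 over 14 points, 7 classes in each of the 2 libraries, among 14692 genes and on log2(CPM + 1). The points share libraries and depth, so this is a description. Galnt18 stood at 233 CPM in T-gated, 0 in natural killer and 0.0907 in tumour cells of the SG-free library, and at 153, 0 and 0.0480 CPM in the control library. The other 9 genes had correlations between 0.923 and 0.956. Penk, the proenkephalin gene, at 70.5 CPM in SG-free and 97.9 CPM in control T-gated cells, and Itgb8, an integrin subunit, at 36.8 and 25.9 CPM, had the next highest levels in T-gated cells. Ncam2, Cnih2, Gdf11, Lmtk3, Ncmap, Mrgpre and 1700019D03Rik stood below 20 CPM in T-gated cells of both libraries.

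Gldc UMIs were set beside those of Cd3g and Galnt18, genes high in T-gated cells, in T-gated and in presumed tumour cells. In T-gated cells there were 0.0672 Gldc UMIs per UMI of Cd3g, a T cell receptor subunit, in the SG-free and 0.0412 in the control library. In presumed tumour cells there were 0.683 in the SG-free and 9.45 in the control library, which had 126 and 31 Cd3g UMIs there. Against Galnt18, T-gated cells had 0.558 Gldc UMIs per UMI in the SG-free and 0.487 in the control library. Presumed tumour cells had 7.17 in the SG-free and 41.9 in the control library, from only 12 and 7 Galnt18 UMIs there. The part of T cell RNA in the Gldc of tumour cells was not tested.

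In presumed tumour cells Gldc was lower in the SG-free library, and in T-gated cells it was higher. The tumour levels of 0.650 CPM in the SG-free and 2.01 CPM in the control library gave a ratio of 0.324 (0.252 to 0.413), or -1.63 on the log2 scale. The T-gated levels of 130 CPM in the SG-free and 74.5 CPM in the control library gave a ratio of 1.75 (1.38 to 2.23), or 0.81 on the log2 scale. The median log2 ratio of all genes was 0.03 over 14601 genes in tumour cells and 0.04 over 7791 genes in T-gated cells. Of 3 members with at least 50 UMIs in tumour cells, Gldc alone was at least 1.5 times lower, as were 4.86% of all genes, and none was that much higher, as were 5.34%. Of 3 members with at least 50 UMIs in T-gated cells, Gldc alone was at least 1.5 times higher, as were 5.2% of all genes, and none was that much lower, as were 3.4%. Fibroblasts had Gldc at 17.0 CPM in the SG-free and 3.08 CPM in the control library, a ratio of 5.53 with a wide interval (1.60 to 29.5) that rests on 3 control UMIs. Each of these compares 2 libraries and cannot tell diet from any other difference between them.

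Within T cells the diet ratio of Gldc was 1.81 in CD8 cells (1.40 to 2.35), 1.59 in cluster 13 (1.25 to 2.03) and 1.77 in cells with at least 4 activation markers (1.26 to 2.52). It was 2.03 in cells with Prf1 (1.56 to 2.67) and 0.796 in cells without (0.456 to 1.42). It was 2.45 in cells with Gzmb (1.78 to 3.43) and 1.0 in cells without (0.698 to 1.46). Averaging per-cell CPM over T-gated cells in place of summing UMIs gave a ratio of 1.37.

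**Figure D4:**
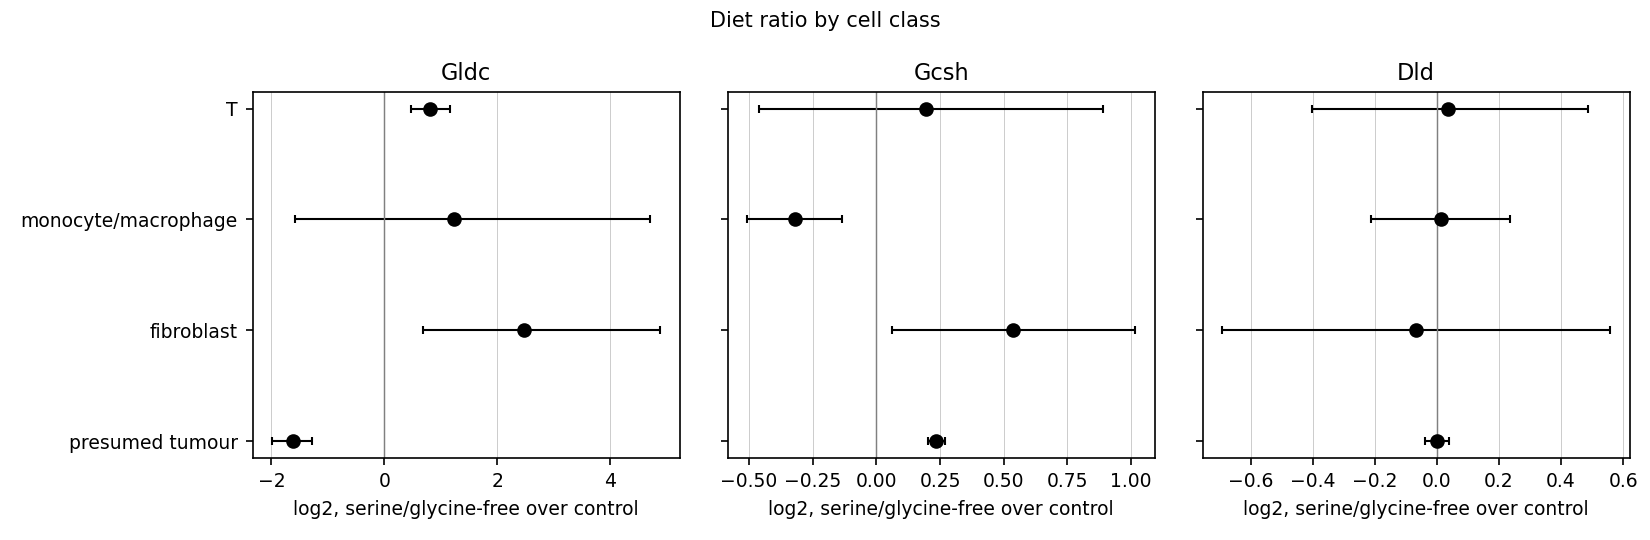
Diet ratio of Gldc, Gcsh and Dld in T-gated cells, monocytes and macrophages, fibroblasts and presumed tumour cells. Points are log2 of SG-free over control CPM and bars are exact conditional 95% intervals. The vertical line marks no difference, and Amt is not drawn. Gldc lies at -1.63 in presumed tumour cells and 0.81 in T-gated cells, and Gcsh at 0.24 in presumed tumour cells.

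Gldc was lower in the SG-free library in 8 of 8 presumed tumour clusters with at least 500 cells, by ratios between 0.131 and 0.614, and 5 of the intervals left out 1. In the control library it was unevenly placed. Cluster 9, led by Cp, Ogn, Aspn, Mgp and Cebpd, had 1.5 CPM in the SG-free and 5.51 CPM in the control library. Cluster 3, led by Lama2, Sncg, Cldn9, Dkk2 and Elovl6, had 0.584 and 4.46 CPM, and cluster 1, led by Cxcl1, Cryab and Dnajb1, had 0.521 and 3.31 CPM. These 3 were the highest of the control library, while clusters 0, 2 and 5 had between 0.708 and 0.810 CPM there. Cluster 3 held 10.5% of tumour Gldc UMIs in the SG-free and 32.4% in the control library, and cluster 9 held 24.4% and 26.6%.

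Krt20, a keratin and 1 of the 3 tumour markers, divided tumour cells by Gldc. Among cells with Hmga2 and Rhox5, those in which Krt20 was found had Gldc at 0.556 CPM in the SG-free and 0.881 CPM in the control library, a ratio of 0.631 (0.442 to 0.894). Those in which it was not found had 0.891 CPM in the SG-free and 4.82 CPM in the control library, a ratio of 0.185 (0.121 to 0.272). Cells without a Krt20 UMI were shallower, with medians of 6796 against 10574 UMIs in the SG-free and 10630.5 against 14212.5 in the control library. Most of the tumour Gldc of the control library, 201 of 293 UMIs, was in cells with Hmga2 and Rhox5 but no Krt20 UMI.

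**Figure D5:**
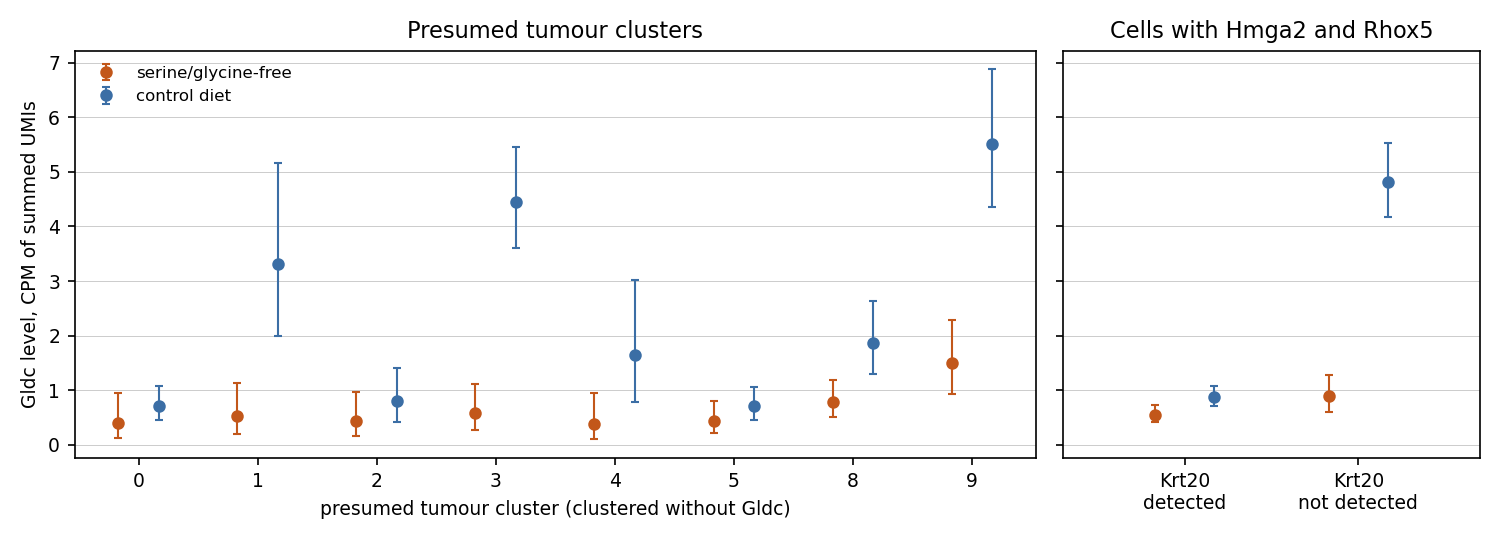
Gldc level in presumed tumour cells, as CPM of summed UMIs (points, SG-free left of control) with exact 95% Poisson intervals (bars), by cluster on the left and by detection of Krt20 among cells with Hmga2 and Rhox5 on the right. Every cluster is lower in the SG-free library, and control cells without a Krt20 UMI stand at 4.82 CPM against 0.881 CPM in control cells with one.

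In control tumour cells Gldc also differed with hypoxia and cycling markers, whereas in SG-free tumour cells, with few Gldc UMIs, the intervals overlapped. Cells with at least 3 of 6 hypoxia markers had Gldc at 0.754 CPM (0.483 to 1.12) in the SG-free and 4.25 CPM (3.42 to 5.22) in the control library. Cells with none had 0.395 CPM (0.181 to 0.750) in the SG-free and 1.48 CPM (1.02 to 2.06) in the control library. Cells with at least 3 of 6 cycling markers had 0.594 CPM (0.435 to 0.793) in the SG-free and 1.39 CPM (1.13 to 1.69) in the control library. Cells with none had 0.864 CPM (0.535 to 1.32) in the SG-free and 3.09 CPM (2.53 to 3.74) in the control library. For interferon markers the control intervals overlapped, at 1.74 CPM (1.25 to 2.37) with at least 3 and 2.18 CPM (1.79 to 2.63) with none. Gcsh was lower in cells with hypoxia markers and higher in cells with cycling markers in both libraries. It was at 87.9 CPM in the SG-free and 75.5 CPM in the control library with at least 3 hypoxia markers, and at 127 and 101 CPM with none. With at least 3 cycling markers it was at 112 CPM in the SG-free and 96.0 CPM in the control library, and with none at 90.3 and 80.2 CPM. Depth moved with these markers. Cells with at least 3 cycling markers had medians of 12125 SG-free and 16808 control UMIs, against 6376.5 and 10319 with none. For hypoxia markers the medians were 10005 and 13463 against 7995 and 11273. These tumour cell bins were not thinned to 1 depth.

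Gcsh was higher in tumour cells of the SG-free library by a small amount. Its levels of 106 CPM in the SG-free and 90.3 CPM in the control library gave a ratio of 1.18 (1.15 to 1.21), or 0.24 on the log2 scale (0.20 to 0.27), and it was higher in 8 of 8 tumour clusters, with 6 intervals leaving out 1. Among cells with Hmga2 and Rhox5 the ratio was 1.22 (1.19 to 1.25) where Krt20 was found and 1.04 (0.989 to 1.09) where it was not. In T-gated cells the ratio was 1.15 (0.727 to 1.85), in fibroblasts it was 1.45 (1.04 to 2.02), and in macrophages it was 0.801 (0.704 to 0.911). Dld had a ratio of 1.0 in tumour cells (0.974 to 1.03), 1.03 in T-gated cells (0.756 to 1.40) and 1.01 in macrophages (0.863 to 1.18). Within tumour clusters Dld was higher in 7 of 8, and the intervals of 2 left out 1, cluster 3 at 1.15 (1.06 to 1.24) and cluster 9 at 1.11 (1.01 to 1.22). Amt in tumour cells gave 0.806 (0.422 to 1.51), from 19 SG-free and 26 control UMIs.

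The neighbouring pathways are 5 lists of 63 genes, of which 62 were in the matrices. In presumed tumour cells 52 had at least 50 UMIs, with 23 on the higher and 29 on the lower side in the SG-free library. None was 1.5 times higher or lower, beside 5.34% of all genes higher and 4.86% lower. The list medians on the log2 scale were -0.06 for lipoate synthesis and transfer, -0.03 for other complexes that use Dld, 0.00 for serine synthesis and interconversion with glycine, -0.03 for folate one-carbon enzymes and 0.14 for other glycine enzymes and transporters, beside 0.03 for all genes. Phgdh, the first enzyme of serine synthesis, was at 293 CPM in SG-free and 296 CPM in control tumour cells, and Psph, its last enzyme, at 117 CPM in both. Mthfd2, the mitochondrial folate dehydrogenase, was at 183 CPM in the SG-free and 180 CPM in the control library, and Mthfd1l, which releases formate, at 102 and 96.7 CPM. Ndufab1, the mitochondrial acyl carrier protein on which lipoate is built, was at 151 and 167 CPM, and the ferredoxin Fdx2 at 77.9 and 86.6 CPM. Pdha1 was at 103 and 91.9 CPM and Pdhb at 56.7 and 56.3 CPM, both subunits of pyruvate dehydrogenase. Slc25a39, a mitochondrial glutathione carrier, was at 86.1 and 77.3 CPM, and Gcat, which makes glycine in threonine breakdown, at 54.5 and 43.7 CPM.

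In T-gated cells 29 list genes had at least 50 UMIs, 2 of them at least 1.5 times higher in the SG-free library and 1 lower, near the background of 5.2% and 3.4% of all genes. Slc25a32, the mitochondrial folate carrier, was at 22.9 CPM in the SG-free and 10.5 CPM in the control library, 1.12 on the log2 scale (0.24 to 2.11). Shmt1, which interconverts serine and glycine in the cytosol, was at 15.9 and 10.5 CPM, with an interval holding 0 on the log2 scale. Slc25a38, the mitochondrial glycine carrier, was at 14.3 CPM in the SG-free and 22.7 CPM in the control library, also with an interval holding 0. A ratio over tumour cells of the same library was available for 49 list genes in the SG-free and 47 in the control library. None was 10 times higher in T-gated cells, beside 6.54% of all genes in the SG-free and 5.75% in the control library. The highest list gene was Gatm, which makes creatine's precursor from glycine, at 7.0 times in the SG-free and 8.70 times in the control library. At least 1.5 times lower in T-gated cells were 21 of the 49 list genes in the SG-free and 23 of the 47 in the control library, beside 34.6% and 36.3% of all genes, and the median ratio of the lists was 0.761 and 0.692.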

How the data were processed

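The authors deposited raw UMI counts per gene and cell barcode for 2 tumour libraries. Per the file headers the counts were made with Cell Ranger 7.0.1, and the submitters' processing notes name version 2.2.2 with mm10. Per the labels' protocols a 10x Genomics 3' kit was used. That text also speaks of human heart tissue, which goes against the mouse tumour labels, so its digestion steps are not relied on. The treatment of intronic and antisense reads is not stated, and counts of nearby genes carry that limit.

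The SG-free library held 20662 barcodes and 173592046 UMIs, and the control library 14774 barcodes and 173785388 UMIs. Barcodes under 500 UMIs, under 300 genes or over 20% mitochondrial UMIs were dropped. Scrublet then removed 1303 SG-free (6.41%) and 571 control cells (4.03%) as doublets. Kept cells were clustered with scanpy 1.11.5 (2000 variable genes, 30 components, 15 neighbours, Leiden resolution 1) with the 4 members left out. Cells meeting the gates of more than 1 class (144 SG-free and 80 control) or of none (1923 and 735) entered no class, and classes under 50 cells in a library are given as counts.

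CPM intervals are exact Poisson, shares exact Clopper-Pearson and ratios exact conditional binomial, each at 95%, from UMIs summed over cells with scipy 1.17.1 in Python 3.11.15. Ratios of genes needed 50 UMIs over both sides, and floors are 3 UMIs over a class in a library. On simulated counts for the tumour diet ratio over 14601 genes, 98.5% of 200 altered genes passed 1.5 times and 95.2% of intervals held the true ratio. This checks the handling of counting error only, and not uneven spread of UMIs over cells or spread between animals. The members, gates and pathway lists were chosen with earlier results of these data known. Genes are named by rule: list genes beyond 1.5 times or else the 2 with most UMIs, the 10 genes most correlated with Gldc over classes, and the 10 with the highest smaller ratio of Gldc-positive over Gldc-negative T-gated cells. No value has a replicate check, since a diet is 1 library.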

Additional observations from a re-analysis of the deposited data

Results flagged for a closer look

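The diet ratio of Gldc pointed opposite ways in the 2 main cell classes, at 0.81 on the log2 scale in T-gated cells (interval 0.47 to 1.16) and at -1.63 in presumed tumour cells (-1.99 to -1.28). The single SG-free library was above the single control library in T-gated cells and below it in tumour cells. With 1 library per diet the difference between the classes was not tested.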

How the results depend on the processing

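No ratio whose interval left out 1 changed direction, and 77 of 95 planned values and all 18 added after seeing the data moved within counting error or, for counts of genes, by at most 1.5 times. The T-gated over tumour ratio of Gldc was 200 in the SG-free and 37.1 in the control library. Averaging per-cell CPM gave 135 in the SG-free library, and adding 1 CPM gave 79.5 in the SG-free and 25.1 in the control library. The stricter gate, with 1 more marker for every class and so all 3 tumour markers, gave 84.5 in the control library. The Gldc diet ratio in tumour cells, 0.324, was 0.630 with this stricter gate and 0.549 with 1 CPM added. The ratio in T-gated cells, 1.75, was 1.37 from per-cell averages. The Gcsh diet ratio in tumour cells, 1.18, was 1.14 without mitochondrial and ribosomal protein genes, 1.15 from per-cell averages and 1.22 with all 3 markers. That of Dld was 0.972 without mitochondrial and ribosomal protein genes. Ratios whose interval held 1 crossed it under some alternatives. Gcsh in T-gated cells, 1.15, was 0.980 with the stricter gate and in cluster 13 alone. Amt in tumour cells, 0.806, was 1.06 with all 3 markers. Dld in T-gated cells, 1.03, was below 1 under 5 alternatives, the lowest 0.844 in cluster 13 alone. Dld in tumour cells was also 0.999 with all 3 markers and with a mitochondrial limit of 10%. With cells thinned to 1000 UMIs, Gldc was found in 9.68% of SG-free and 5.87% of control T-gated cells and in 0.0854% of SG-free and 0.250% of control tumour cells, as fewer UMIs leave fewer to find. In T-gated cells the list genes beyond 1.5 times were 0 higher and 0 lower with at least 200 UMIs, where fewer genes qualify, and 1 higher without mitochondrial and ribosomal protein genes. Where no construction shows the reason, the cause was not tested. No paired analysis was possible because each diet has 1 library. Amt, at 19 SG-free and 26 control tumour UMIs, is limited by depth throughout.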

Other observations

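Cells that met the gates of more than 1 class held 21 Gldc UMIs in 12 of 144 SG-free cells (33.5 CPM) and none in 80 control cells. Cells that met no gate held 20 Gldc UMIs in 1923 SG-free cells and 6 in 735 control cells. T-gated cells with exactly 3 T cell markers held 4 Gldc UMIs in 119 SG-free cells (31.4 CPM) and none in 29 control cells, and those with at least 4 markers stood at 135 CPM in the SG-free and 77.0 CPM in the control library. Cells with 2 markers, just outside the gate, held no Gldc UMI in 47 SG-free or 12 control cells. Of 3 markers of hepatocytes, which are rich in the glycine cleavage system, Alb and Ttr had 0 UMIs in T-gated cells of both libraries. Apoa1 had 1 UMI in SG-free and 0 in control T-gated cells, and 80 in SG-free and 84 in control tumour cells.

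Among presumed tumour clusters, Gcsh was highest in cluster 2, led by Fkbp11 and Srm, at 149 CPM in the SG-free and 128 CPM in the control library. It was lowest in cluster 9, the cluster with the highest Gldc level, at 64.6 CPM in the SG-free and 59.1 CPM in the control library.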
